A study of Homo sapiens with 16 samples.

Results

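The BTG and TOB genes encode small antiproliferative proteins that share an amino-terminal APRO domain. BTG1, BTG2, BTG3, TOB1 and TOB2 were taken from the gene table by their symbols, which gives 5 of 25369 genes. The rule used no measured value, but the members were chosen with earlier results of these data known. The other listed family gene, BTG4, held 0 to 8 counts per library in K1 and 2 to 56 in TPC1 and was not made a member.

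Through the APRO domain, these proteins bind the CNOT7 and CNOT8 deadenylases of the CCR4-NOT complex, which shortens the poly(A) tail of mRNAs and so begins their decay. The TOB proteins also bind the cytoplasmic poly(A) binding protein PABPC1. BTG2, also known as TIS21 or PC3, is a known transcriptional target of p53, the transcription factor that MDM2 holds in check.

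The libraries are stranded, polyadenylated RNA-seq of TPC1 and K1, human papillary thyroid carcinoma lines that express wild type p53. TPC1 was grown in RPMI and K1, a GLAG-66 derivative, in DMEM, so line and medium cannot be told apart. Cells of each line received vehicle (0.2% DMSO), 10 µM nutlin-3a, which releases p53 from MDM2, 25 µM GSK2830371, an inhibitor of the phosphatase PPM1D, or both drugs, for 24 h. Each of these 8 groups holds 2 libraries, numbered 1 and 3 in TPC1 and 1 and 2 in K1, and no label says whether the replicates of a group came from separate cultures. The p values therefore measure the spread between these libraries, which may be technical, although the study describes its replicates as independent.

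Total counts ran from 30789887 to 76648552 in TPC1, with all libraries numbered 3 deeper than all those numbered 1, and from 28888686 to 37161241 in K1. The lowest count of any member in any library was 262, for BTG2 in K1 vehicle replicate 1. Of 6 thyroid markers, FOXE1, PAX8 and TG reached 1 CPM in both lines, whereas TSHR, SLC5A5 and NKX2-1 stayed under 1 CPM. The 6 markers summed to 326 to 499 CPM in the TPC1 libraries and 774 to 877 CPM in the K1 libraries. Of 5 epithelial markers, KRT8 and KRT18 alone reached 1 CPM, in both lines. Of 5 leukocyte and endothelial markers, CD68 alone reached 1 CPM. CDKN1A, the p53 target that encodes p21, rose with nutlin, and its log2 fold change was 5.61 for TPC1 and 3.16 for K1 (adjusted p = 7.5e-09 and 2.1e-12, edgeR's quasi-likelihood test). MDM2 rose there by 4.96 and 3.05, and PPM1D by 1.90 and 1.32.

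Levels are given as CPM, which are counts relative to a library size scaled by TMM over the 16 libraries. Differences are log2 fold changes with their standard error from edgeR's quasi-likelihood test, and p values were adjusted by Benjamini-Hochberg over all genes tested in that comparison. A gene is said to rise or fall, or is called, where the adjusted p is under 0.05 and the fold change is above 1.5. The fits took the libraries as unpaired, although the replicate numbers pair those of TPC1. The tests covered 15273 genes in TPC1, 15900 in K1 and 16738 across the lines, and all 5 members passed the filter on low counts in each.

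BTG2 and BTG1 were the members that both drugs raised above nutlin in TPC1, so the 250 bases upstream of their annotated starts are shown as RefSeq gives them on GRCh38.p14, 5′ to 3′ on the strand of the gene. The BTG2 window is chr1:203305269-203305518 on the plus strand and the BTG1 window chr12:92145847-92146096 on the minus strand. Capitals mark the CCAAT box, the TATA box in its form TATAAA and the core of the CRE, TGACG, all read on either strand.
BTG2: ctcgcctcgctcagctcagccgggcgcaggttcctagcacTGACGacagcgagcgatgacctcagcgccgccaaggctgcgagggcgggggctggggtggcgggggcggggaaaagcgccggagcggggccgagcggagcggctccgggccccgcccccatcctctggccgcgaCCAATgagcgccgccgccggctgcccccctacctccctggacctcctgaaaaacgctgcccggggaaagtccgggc
BTG1: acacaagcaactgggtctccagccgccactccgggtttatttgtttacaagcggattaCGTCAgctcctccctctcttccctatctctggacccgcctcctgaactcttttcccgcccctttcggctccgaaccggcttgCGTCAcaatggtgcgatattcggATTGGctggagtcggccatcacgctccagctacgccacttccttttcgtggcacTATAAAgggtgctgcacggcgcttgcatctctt

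The BTG2 window held 1 CCAAT box, 1 CRE core and no TATA box, at a GC content of 74.8%. The BTG1 window held 1 CCAAT box, 1 TATA box and 2 CRE cores, at a GC content of 56.4%. Over 35116 RefSeq windows of the same length, 32% held the CCAAT box, 10.7% the TATA box and 21.2% the CRE core. The decamer that p53 binds, searched without mismatch in windows of 300 bases, was in none of the 6 windows of the members and in 6.63% of all windows. The ATF4 core TGATGCAA was likewise in none of these 6 windows and in 0.866% of all.

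Full p53 response elements consist of a pair of such decamers. The closest match within 2000 bases of the canonical start of BTG2, BTG1, BTG3 and TOB1 was therefore read from the GRCh37 genome. A spacer of up to 13 bases was allowed. Mismatches to the decamer RRRCWWGYYY were allowed except at its fixed C and G, where R is A or G, W is A or T and Y is C or T. Capitals mark the decamers and lower case the spacer, on the strand of the gene.
BTG2: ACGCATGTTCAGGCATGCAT
BTG1: GAGCCAGCTCagaacGGACGTGCCG
BTG3: ACACAAGAGTaGGGCAAGTTT
TOB1: CAGCAAGCCCtagaaatgcACGCATGCGT

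The BTG2 match, at chr1:203272770-203272789 on the plus strand, lay at position -1868 relative to the start in bases, with no spacer and 2 mismatches. Of 19869 genes searched in the same way, 32.9% had a match with 2 mismatches or fewer, and 8.15% had one at least as good in mismatches and spacer. The 3 matches of BTG1, BTG3 and TOB1 each had 3 mismatches, and 83.6% of genes had a match with 3 mismatches or fewer. By mismatches and spacer together, 65.9%, 47.4% and 76.9% of genes had a match at least as good as that of BTG1, BTG3 and TOB1. They lay at chr12:92538721-92538745 for BTG1, chr21:18987189-18987209 for BTG3 and chr17:48944609-48944637 for TOB1, all on the minus strand. These matches are letters in the reference and were not tested for binding.

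BTG2 had the widest range of levels of the 5 members. The gene lies at chr1:203274619-203278730 on the plus strand of GRCh37. In TPC1, its level was 20.7 and 21.6 CPM with vehicle, 19.9 and 24.1 CPM with GSK2830371, 610.1 and 618 CPM with nutlin, and 937 and 1031 CPM with both drugs. The vehicle and GSK2830371 libraries overlapped, the nutlin libraries stood far above them, and both combination libraries stood above both nutlin libraries. In K1, the level was 7.39 and 8.48 CPM with vehicle, 17.5 and 16.4 CPM with GSK2830371, 121 and 131 CPM with nutlin, and 149.8 and 167 CPM with both drugs. No K1 group overlapped another, and the K1 level was below the TPC1 level under each of the 4 treatments. From the highest, the order was TPC1 combination, TPC1 nutlin, K1 combination, K1 nutlin, TPC1 GSK2830371, TPC1 vehicle, K1 GSK2830371 and K1 vehicle, in which TPC1 GSK2830371 and TPC1 vehicle were the neighbours that overlapped.

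**Figure D1:**
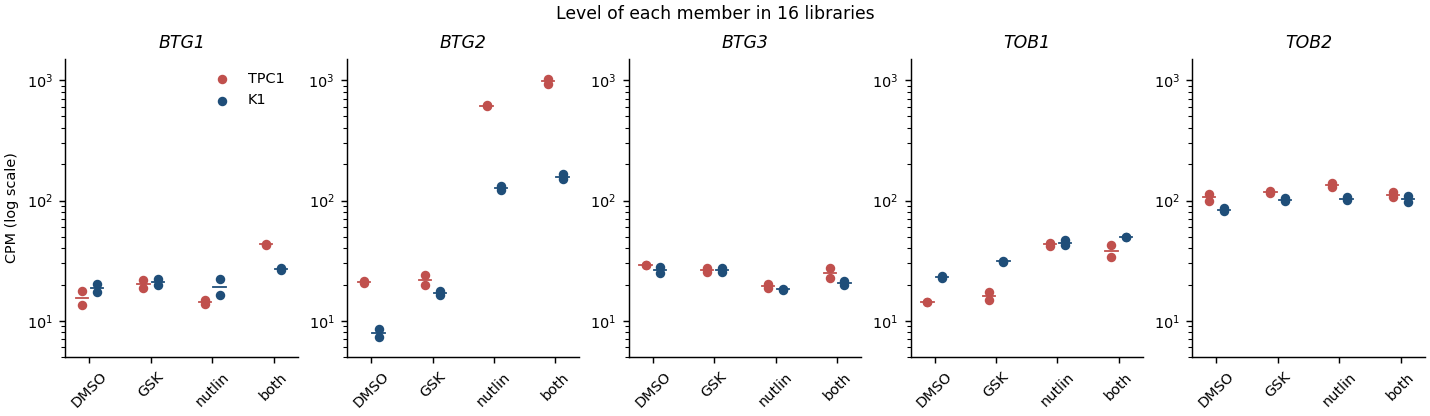
Level in CPM, on a log axis, of BTG1, BTG2, BTG3, TOB1 and TOB2 in vehicle (DMSO), GSK2830371 (GSK), nutlin and combination (both) libraries of TPC1 and K1. Each point is 1 library and each bar the mean of 2, and BTG2 spans from 7.39 CPM in a K1 vehicle library to 1031 CPM in a TPC1 combination library.

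TOB1, a transducer of ERBB2 that represses growth and binds SMAD proteins, had the next clearest response to nutlin. It lies at chr17:48939584-48945339 on the minus strand. In TPC1, its level was 14.2 and 14.3 CPM with vehicle, 15.0 and 17.2 CPM with GSK2830371, 42.1 and 44.4 CPM with nutlin, and 33.8 and 43.0 CPM with both drugs. The nutlin and combination libraries overlapped, and all 4 stood above the other TPC1 libraries. In K1, its level was 23.4 and 22.7 CPM with vehicle, 30.9 and 31.7 CPM with GSK2830371, 42.4 and 46.6 CPM with nutlin, and 50.04 and 49.7 CPM with both drugs. No K1 group overlapped another, and with nutlin the lines overlapped each other although their vehicle libraries did not. From the highest, the order over both lines was K1 combination, K1 nutlin, TPC1 nutlin, TPC1 combination, K1 GSK2830371, K1 vehicle, TPC1 GSK2830371 and TPC1 vehicle, in which the second to the fourth overlapped.

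BTG1, a close relative of BTG2 that was first described at a translocation in a B cell leukaemia, lies at chr12:92534054-92539622 on the minus strand. In TPC1, its level was 13.7 and 17.6 CPM with vehicle, 18.6 and 21.8 CPM with GSK2830371, 13.9 and 14.9 CPM with nutlin, and 43.6 and 42.7 CPM with both drugs. The nutlin libraries lay within the range of the vehicle libraries, and the combination libraries stood above all others of the line. In K1, its level was 20.3 and 17.4 CPM with vehicle, 19.7 and 22.1 CPM with GSK2830371, 16.5 and 22.1 CPM with nutlin, and 27.2 and 26.5 CPM with both drugs. The first 3 groups of K1 overlapped, and the combination libraries stood above them. Over both lines, TPC1 combination was highest and K1 combination next, and the 6 other groups lay between 13.7 and 22.1 CPM with overlaps between neighbours.

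BTG3, also known as ANA, which binds E2F1, lies at chr21:18965971-18985263 on the minus strand. In TPC1, its level was 29.1 and 29.2 CPM with vehicle, 25.6 and 27.5 CPM with GSK2830371, 18.8 and 20.1 CPM with nutlin, and 22.9 and 27.5 CPM with both drugs. Nutlin gave the lowest pair in this line, and the combination libraries lay between that pair and vehicle. In K1, its level was 25.0 and 28.1 CPM with vehicle, 25.5 and 27.4 CPM with GSK2830371, 17.9 and 18.6 CPM with nutlin, and 21.6 and 19.8 CPM with both drugs. The order of the groups in K1 was as in TPC1, with nutlin lowest and vehicle and GSK2830371 overlapping. Over both lines, TPC1 vehicle was highest and K1 nutlin lowest, and the 6 groups between them overlapped with a neighbour.

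TOB2, the second TOB protein, lies at chr22:41829498-41842805 on the minus strand. In TPC1, its level was 113 and 99.6 CPM with vehicle, 120.4 and 116 CPM with GSK2830371, 140.02 and 129.9 CPM with nutlin, and 117 and 107 CPM with both drugs. The combination overlapped vehicle, and the nutlin libraries were the highest of the line. In K1, its level was 87.0 and 81.2 CPM with vehicle, 98.5 and 105 CPM with GSK2830371, 101 and 107 CPM with nutlin, and 98.1 and 108 CPM with both drugs. The 3 drug groups of K1 overlapped one another and stood above vehicle. Over both lines, TPC1 nutlin was highest and K1 vehicle lowest, and neither overlapped another group.

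Levels were compared between members per kb of exon, with exon lengths of 4855, 2757, 2304, 2521 and 4341 bases for BTG1, BTG2, BTG3, TOB1 and TOB2 from GENCODE. With vehicle, TOB2 had the highest level in both lines, at 45.6% ± 2.90 (SD, n = 2) of the summed CPM per kb of the 5 members in TPC1 and 41.4% ± 1.73 in K1. BTG3 came next, with 23.6% ± 0.620 in TPC1 and 24.6% ± 2.21 in K1. BTG2 held 14.3% ± 0.766 of the sum in TPC1 and 6.15% ± 0.640 in K1, where it was the lowest of the 5.

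With nutlin, BTG2 became the member with the highest level per kb in both lines, at 78.9% ± 0.289 (SD, n = 2) of the sum in TPC1 and 46.2% ± 0.0762 in K1. With both drugs it held 85.4% ± 0.369 in TPC1 and 49.7% ± 1.53 in K1. GSK2830371 left TOB2 on top, with BTG2 at 13.9% ± 1.37 in TPC1 and 10.7% ± 0.867 in K1. Measured on the longest transcript in place of all exons, BTG3 held 31.9% rather than 23.6% of the sum with vehicle in TPC1, and BTG2 still held 77.1% with nutlin. In TPC1, TOB2 and BTG3 held 6.20% and 2.61% of the sum with both drugs, and these shares depend on the level of BTG2.

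**Figure D2:**
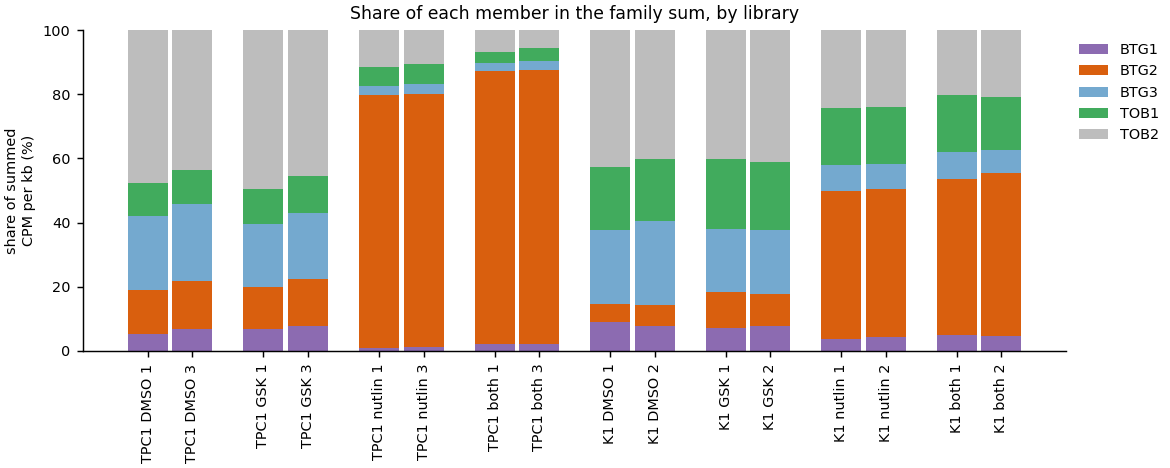
Share in percent of each member in the summed CPM per kb of the 5 members, as 1 stacked bar per library of TPC1 and K1 under vehicle (DMSO), GSK2830371 (GSK), nutlin and both drugs. BTG2 takes a mean of 14.3% with vehicle and 85.4% with both drugs in TPC1, and 6.15% and 49.7% in K1.

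The summed level of the family in TPC1 was 53.7 ± 1.31 CPM per kb with vehicle, 282 ± 1.66 with nutlin and 418 ± 26.4 with both drugs (SD, n = 2), which gives ratios of means of 5.26 and 7.78. In K1, the sum was 46.8 ± 0.332 with vehicle, 99.3 ± 5.82 with nutlin and 115.5 ± 5.28 with both drugs, which are ratios of 2.12 and 2.47. Without BTG2, the same ratios were 1.30 and 1.32 in TPC1 and 1.22 and 1.32 in K1. In bulk RNA, a change in the number of cells that express a gene and a change in RNA per cell cannot be told apart.

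Nutlin against vehicle addresses what releasing p53 from MDM2 does to the family. In TPC1, BTG2 and TOB1 rose, BTG3 fell, and BTG1 and TOB2 were not called, so 3 of 5 members were called where 35.5% of all genes tested were. In K1, BTG2 and TOB1 rose and 3 members were not called, against 9.27% of all genes.

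BTG2 rose by 4.83 ± 0.106 on the log2 scale in TPC1 (95% interval 4.59 to 5.07, adjusted p = 6.8e-09 by edgeR), a fold change of 28.4 that ranked 133 among the genes tested. In K1, it rose by 3.99 ± 0.0868 (3.80 to 4.18, adjusted p = 4.7e-12 by edgeR), a fold change of 15.9 that ranked 37. TOB1 rose as well, at 1.57 ± 0.117 for TPC1 and 0.95 ± 0.0680 for K1 (adjusted p = 4.4e-06 and 1.9e-07, edgeR). BTG3 fell in TPC1, at -0.62 ± 0.0969 (adjusted p = 5.4e-04, edgeR), a fold change of 0.653, and without nutlin replicate 1 the value was -0.58 and the call was lost at the 1.5-fold limit. In K1, the BTG3 difference was -0.54 ± 0.0826 (adjusted p = 2.2e-04, edgeR), which passed the p threshold and missed the fold threshold, and without vehicle replicate 1 it was -0.62 and was called.

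BTG1 differed from vehicle by -0.15 in TPC1 (95% interval -0.42 to 0.11) and by 0.04 in K1 (-0.22 to 0.29), so increases above 0.29 on the log2 scale lie outside both intervals. TOB2 stood at 0.31 ± 0.0981 in TPC1 and 0.30 ± 0.0650 in K1 (adjusted p = 0.0241 and 0.00292, edgeR), and missed the fold threshold in both lines.

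GSK2830371 against vehicle shows what PPM1D inhibition did without nutlin. No member was called in TPC1, where 1.40% of genes were and where edgeR's adjusted p ran from 0.11 for BTG1 to 0.748 for BTG2. Of these 5, only BTG1 had an unadjusted p under 0.05, at a difference of 0.37 ± 0.114 (95% interval 0.11 to 0.63), and DESeq2's Wald test also called 0 of 5.

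In K1, 1 of 5 members was called in this comparison, against 2.23% of genes. This was BTG2, which rose by 1.09 ± 0.0957 on the log2 scale (0.89 to 1.30, adjusted p = 1.3e-04, edgeR), a fold change of 2.13. TOB1 differed by 0.44 ± 0.0692 and TOB2 by 0.27 ± 0.0651, with adjusted p = 0.00105 and 0.00982 by edgeR, both under 1.5-fold. CDKN1A rose in the same K1 comparison by 1.01 ± 0.0581 (adjusted p = 2.8e-06, edgeR). The 2 other check genes were not called there, with MDM2 at 0.36 and PPM1D at -0.24.

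Both drugs against vehicle used the same vehicle libraries, so these values are not independent of those for single drugs. In TPC1, BTG1, BTG2 and TOB1 rose, 3 of 5 members against 44.2% of genes. In K1, BTG2 and TOB1 rose, 2 of 5 against 15.7% of genes. BTG2 rose by 5.51 ± 0.109 in TPC1 (adjusted p = 2.6e-09, edgeR), a fold change of 45.7, and by 4.32 ± 0.0869 in K1 (adjusted p = 1.1e-12, edgeR), a fold change of 19.9. TOB1 rose by 1.40 ± 0.117 and by 1.11 ± 0.0675 in the respective lines (adjusted p = 6.2e-06 and 1.9e-08, edgeR).

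BTG1 rose by 1.43 ± 0.113 in TPC1 with both drugs (95% interval 1.18 to 1.69, adjusted p = 4.5e-06, edgeR), a fold change of 2.70. In K1, its difference was 0.51 ± 0.115 (0.26 to 0.76, adjusted p = 0.00261, edgeR), which missed the fold threshold, and without vehicle replicate 1 it was 0.62 and was called. BTG3 stood at -0.24 ± 0.0956 in TPC1 and -0.36 ± 0.0812 in K1 (adjusted p = 0.0556 and 0.00265, edgeR), neither called. TOB2 stood at 0.05 in TPC1 and 0.29 in K1, neither called.

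**Figure D3:**
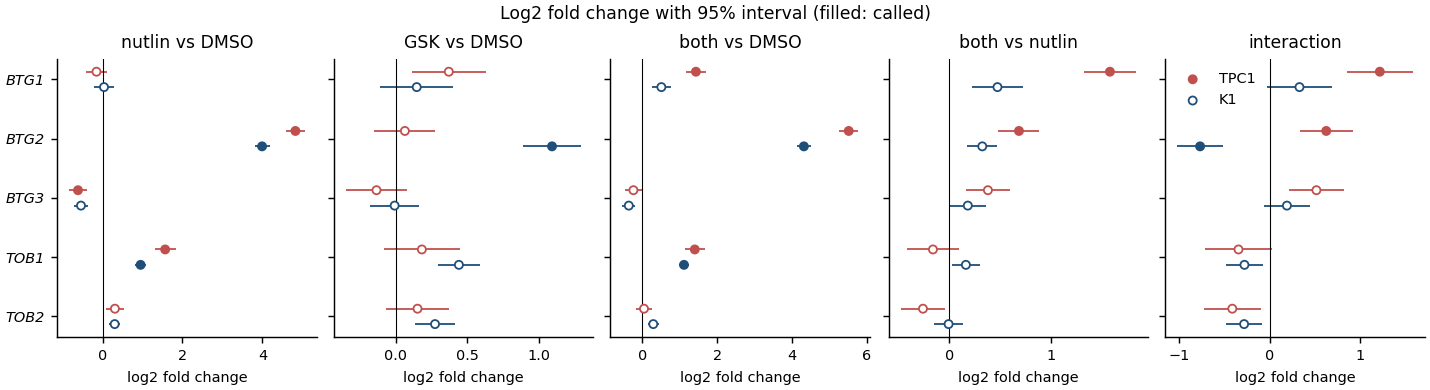
Log2 fold change with its 95% interval of each member in TPC1 and K1 for nutlin, GSK2830371 (GSK) and both drugs against vehicle, for both drugs against nutlin, and for the interaction, each panel on its own scale. Filled points are called, and BTG2 is at 4.83 and 3.99 with nutlin in TPC1 and K1, while BTG1 is at 1.59 and 0.47 for both drugs against nutlin.

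The combination against nutlin asks what PPM1D inhibition added when given together with nutlin. In TPC1, BTG1 and BTG2 rose, 2 of 5 members against 12.1% of genes. BTG1 rose by 1.59 ± 0.115 on the log2 scale (1.33 to 1.85, adjusted p = 4.8e-05, edgeR), and BTG2 by 0.69 ± 0.0896 (0.48 to 0.89, adjusted p = 8.8e-04, edgeR), a fold change of 1.61. BTG3 was at 0.38 ± 0.0973 (adjusted p = 0.0198, edgeR), under 1.5-fold. TOB1 was at -0.16 (95% interval -0.42 to 0.09) and TOB2 at -0.26 (-0.48 to -0.04), neither called.

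No member was called in K1 in this comparison, in which 2.68% of genes were called. The 2 members with an adjusted p under 0.05 by edgeR were BTG1, at 0.47 ± 0.116 (adjusted p = 0.0179), and BTG2, at 0.32 ± 0.0688 (adjusted p = 0.00815), and both missed the fold threshold. At an unadjusted p under 0.05 there were 3, with TOB1. Without nutlin replicate 2, which held 22.1 CPM of BTG1 where replicate 1 held 16.5 CPM, the BTG1 value was 0.70 and was called. DESeq2's Wald test, run as an alternative, also called 0 of 5.

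Against GSK2830371 alone, both drugs raised BTG1, BTG2 and TOB1 in TPC1, 3 of 5 members where 38.5% of genes were called. BTG1 rose there by 1.06 ± 0.112, BTG2 by 5.45 ± 0.109 and TOB1 by 1.22 ± 0.116 (adjusted p = 3.8e-05, 4.2e-09 and 1.9e-05, edgeR). In K1, BTG2 and TOB1 rose, 2 of 5 where 13.1% of genes were called. BTG2 rose by 3.22 ± 0.0804 and TOB1 by 0.67 ± 0.0666 (adjusted p = 1.4e-11 and 3.5e-06, edgeR), while BTG1 stood at 0.36 ± 0.116 and was not called.

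The interaction, which is the nutlin effect with GSK2830371 present minus the nutlin effect without it, was called for 2 of 5 members in TPC1, where 6.32% of genes were called, and for 1 of 5 in K1, where 2.44% were. In TPC1, BTG1 was positive at 1.21 ± 0.161 on the log2 scale (0.85 to 1.58, adjusted p = 0.00376, edgeR). BTG2 was positive in TPC1 at 0.62 ± 0.130 (0.33 to 0.92, adjusted p = 0.0218, edgeR), and this call was lost without nutlin replicate 1 or 3, GSK2830371 replicate 1, vehicle replicate 3 or combination replicate 3, at values of 0.52 to 0.63. BTG3 was at 0.51 ± 0.136 in TPC1 (adjusted p = 0.0504, edgeR), and without combination replicate 1 it was 0.63 and was called.

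In K1, the BTG2 interaction was negative, at -0.77 ± 0.118 (95% interval -1.02 to -0.52, adjusted p = 0.00593, edgeR). On the log2 scale, the rise with GSK2830371 alone, 1.09, exceeded what GSK2830371 added to nutlin, 0.32. In CPM the step was larger on top of nutlin, with averages of 126 for nutlin and 158 for both drugs. Those for vehicle and GSK2830371 alone were 7.94 and 17.0. Without nutlin replicate 2 the K1 interaction was -0.71 and its adjusted p by edgeR 0.0577. TOB1 and TOB2 had negative interactions in both lines, from -0.41 to -0.28, none called.

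In vehicle libraries, the lines differed in 2 of 5 members, against 46.2% of genes tested over all 16 libraries. BTG2 was lower in K1 by -1.41 ± 0.107 on the log2 scale (-1.64 to -1.18, adjusted p = 5.1e-09, edgeR), and TOB1 was higher in K1 by 0.69 ± 0.105 (0.47 to 0.91, adjusted p = 2.1e-05, edgeR). TOB2 was at -0.34 ± 0.0826 and missed the fold threshold.

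Responses to each treatment were then compared between the lines as K1 minus TPC1. For nutlin against vehicle, 2 of 5 members differed, against 19.2% of genes. BTG2 responded less in K1 by -0.87 ± 0.141 (adjusted p = 1.9e-04, edgeR) and TOB1 by -0.65 ± 0.145 (adjusted p = 0.00255, edgeR). Without K1 nutlin replicate 1, the TOB1 difference was -0.58 and missed the fold threshold. TOB1 began higher and ended in the same range with nutlin in K1, with nutlin levels of 42.4 and 46.6 CPM in K1 and 42.1 and 44.4 CPM in TPC1.

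For GSK2830371 against vehicle, 1 of 5 members differed, against 2.18% of genes, and this was BTG2, higher in K1 by 1.03 ± 0.148 (0.72 to 1.34, adjusted p = 0.00293, edgeR). For both drugs against vehicle, BTG1 and BTG2 differed, 2 of 5 against 25.7% of genes. BTG1 responded less in K1 by -0.95 ± 0.188 and BTG2 by -1.22 ± 0.141 (adjusted p = 7.6e-04 and 4.2e-06, edgeR).

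For both drugs against nutlin, 1 of 5 members differed, against 5.11% of genes. This was BTG1, at -1.10 ± 0.190 (-1.50 to -0.70, adjusted p = 0.00193, edgeR). BTG2 was at -0.35 ± 0.128 (adjusted p = 0.104, edgeR), so the rise of BTG2 that was called in TPC1 and not in K1 was not shown to differ between the lines.

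For both drugs against GSK2830371, BTG1 and BTG2 differed, 2 of 5 against 24.1% of genes, at -0.72 ± 0.187 and -2.25 ± 0.137 (adjusted p = 0.00594 and 4.2e-09, edgeR). The BTG1 difference was -0.56 and missed the fold threshold with library size alone in place of TMM. TOB1 was at -0.58 ± 0.144 and missed the fold threshold, and it was called at -0.60 without K1 combination replicate 1, -0.59 without K1 GSK2830371 replicate 1, -0.74 without TPC1 combination replicate 1 and -0.69 without TPC1 GSK2830371 replicate 3.

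The interaction differed for 1 of 5 members, BTG2, against 3.14% of genes, at -1.38 ± 0.196 (-1.80 to -0.97, adjusted p = 0.00204, edgeR). BTG1 was at -0.88 ± 0.269 (adjusted p = 0.0852, edgeR), and with the replicate number as a block it was -0.88 with adjusted p = 0.0181 and was called. It was also called without K1 nutlin replicate 1, at -1.07, and without TPC1 vehicle replicate 1, at -1.04.

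**Figure D4:**
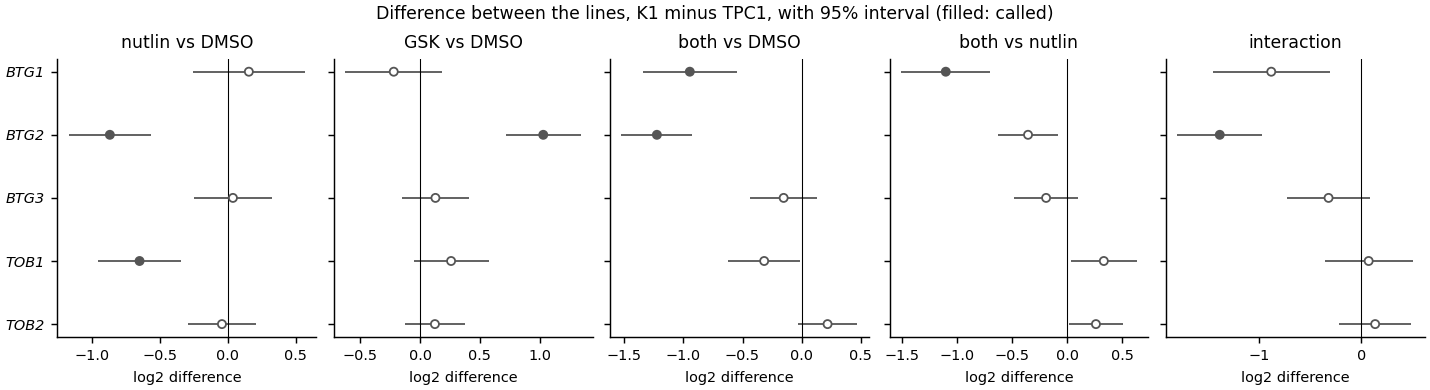
Difference between the lines in the log2 response of each member, K1 minus TPC1, with its 95% interval, for nutlin, GSK2830371 (GSK) and both drugs against vehicle, both drugs against nutlin, and the interaction, each panel on its own scale. Filled points are called, and BTG2 lies at -0.87 for nutlin and at 1.03 for GSK2830371, while BTG1 lies at -1.10 for both drugs against nutlin.

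The CCR4-NOT complex, through which the members act on poly(A) tails, was followed over 11 listed subunits, all tested. In TPC1, 4 of 11 fell and none rose with nutlin, and 6 of 11 fell and none rose with both drugs, at a list median of -0.61 on the log2 scale where the median of all genes was 0.00. Of all genes tested, 35.5% were called in either direction with nutlin and 44.2% with both drugs in TPC1. Those that fell were 2752 of 15273 genes with nutlin and 3309 with both drugs. With both drugs, the CNOT7 deadenylase, to which the members bind, fell by 0.69 ± 0.0952 (adjusted p = 1.7e-04, edgeR), and CNOT9 fell by 1.10 ± 0.0731 (adjusted p = 1.4e-06, edgeR). The other member-binding deadenylase, CNOT8, stood at -0.03 ± 0.0922. In K1, where 9.27% and 15.7% of all genes were called, none of the 11 was called with nutlin or with both drugs, and the list median with both drugs was -0.04. By edgeR's adjusted p alone, 5 of 11 passed with nutlin and 5 with both drugs in K1, all under 1.5-fold.

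Of 14 listed genes of the poly(A) tail and decapping, 1 rose and none fell with nutlin in TPC1, and 3 rose and 1 fell with both drugs, against 35.5% and 44.2% of all genes called in either direction. The decapping cofactor DCP1B rose by 1.46 ± 0.0908 and the deadenylase PAN2 by 0.86 ± 0.0998, while EDC4, a scaffold of decapping, fell by 0.76 ± 0.0827 (adjusted p = 9.3e-07, 6.0e-05 and 3.8e-05, edgeR). PABPC1, which the TOB proteins bind, averaged 3872 CPM with vehicle and 6156 CPM with both drugs in TPC1, and 564 and 545 CPM in K1. In K1, none of the 14 was called with nutlin or with both drugs, and by edgeR's adjusted p alone 5 and 6 passed. The list medians with both drugs were 0.01 in TPC1 and -0.04 in K1.

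Of 8 described partners and targets of the members, 1 rose and 4 fell with nutlin in TPC1, and 1 rose and 5 fell with both drugs, where 35.5% and 44.2% of all genes were called. In K1, 3 of 8 fell with nutlin and 3 with both drugs, and none rose, against 9.27% and 15.7% of all genes called. These shares count both directions. Genes that fell with nutlin and with both drugs were 2752 and 3309 of 15273 in TPC1, and 863 and 1287 of 15900 in K1. With both drugs, E2F1, which BTG3 binds, stood at -3.603 ± 0.163 in TPC1 and at -2.52 ± 0.0838 in K1 (adjusted p = 1.2e-07 and 9.3e-11, edgeR), and fell in both lines. CHEK1, the checkpoint kinase that BTG3 acts on, fell as well, at -1.93 ± 0.0771 and -1.71 ± 0.0798 (adjusted p = 5.6e-08 and 1.9e-09, edgeR). SMAD5, a mediator of BMP signalling, rose in TPC1 by 0.73 ± 0.133 (adjusted p = 0.00109, edgeR). The other listed SMAD genes, SMAD9 and SMAD1, went the other way in TPC1 with both drugs. SMAD9 fell, at -1.92 ± 0.104 (adjusted p = 3.9e-07, edgeR). SMAD1 stood at -0.37 ± 0.0876 (adjusted p = 0.0048, edgeR) and missed the fold threshold. With GSK2830371 against vehicle, edgeR called 0 genes of these 3 lists in either line. Of all genes, 1.40% were called there in TPC1 and 2.23% in K1. By edgeR's adjusted p alone, 0 genes of each list passed in TPC1, and 3, 5 and 4 passed in K1. An unadjusted p under 0.05 was given to 1 gene of each list in TPC1 and to 6, 7 and 5 genes in K1.

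Patterns were compared by Pearson's r of log2 CPM over the 16 libraries, centred within each line, among the 10773 genes that averaged 5 CPM or more. The libraries of a group share their treatment, so these values describe likeness and carry no p. BTG2 and TOB1 had the most alike patterns among the members, with r = 0.973. BTG3 ran opposite to BTG2, TOB1 and TOB2, with r = -0.75, -0.74 and -0.74. BTG1 was less like BTG2, with r = 0.460.

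Among all genes, those most like BTG2 were IP6K2, PHLDB3 and PSTPIP2, with r from 0.995 to 0.996. For TOB1 they were SEC31A, THSD1 and SRGAP3, with r from 0.983 to 0.994. For BTG1 they were TSC22D3, GOT1 and HEIH, with r from 0.936 to 0.952 over both lines, but in K1 alone r was 0.809 for TSC22D3, 0.527 for HEIH and 0.376 for GOT1. BTG3 was most like C19orf48, TAF4B and TIAL1, with r from 0.933 to 0.957, and TOB2 most like CDS2, RDH10 and KLHDC10, with r from 0.910 to 0.924. By Spearman's rho, SEC31A, TIAL1 and the 3 named for TOB2 stayed among the 3 most alike, and the other genes named did not.

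The low-count family gene BTG4 was listed as raised with nutlin in TPC1, at 2.09 ± 0.577 (adjusted p = 0.0126, edgeR), on counts of 13 and 56 with nutlin against 9 and 8 with vehicle. These nutlin counts come from libraries of unequal depth and correspond to 0.438 and 0.900 CPM, above 0.238 and 0.112 CPM with vehicle. In K1, the BTG4 difference was 0.11 ± 0.746, on 7 and 3 counts against 3 and 8.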

How the data were processed

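Stranded, polyadenylated RNA-seq of 16 libraries was analysed. The authors used TopHat2 2.0.13 for alignment to GRCh37, dropped alignments of low mapping quality and counted reads per gene with HTSeq 0.6.1 on the reverse strand over the exons of the iGenomes hg19 annotation, so the deposited values are raw read counts per gene symbol without normalization. The submitters' processing notes list these tool versions. All 16 count columns were used. In TPC1, columns numbered 3 were given their treatment and no sample number, since the labels number these replicates differently.

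The members and gene lists were chosen with earlier results of these data known. Counts were fitted per line with its 4 treatments together, or over all 16 libraries for differences between the lines, in edgeR 4.0.16 (R 4.3.3, limma 3.58.1) with TMM scaling and the quasi-likelihood test. Genes above 0.1 CPM in at least 2 libraries were kept. Residual degrees of freedom were 4 per line and 8 over both. Alternatives were DESeq2 1.42.0 size factors or library size alone, filterByExpr or no filter beyond 1 count, DESeq2's Wald test, fits of only the groups compared, the replicate number as a block, and leaving out each library. The steps were tested on counts simulated for independent libraries with planted changes above the fold threshold, so neither pairing nor changes near that threshold were covered.

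Whether replicate numbers pair the libraries was checked by correlating replicate differences between treatments across genes. In TPC1, r ran from 0.448 to 0.624 over 12318 genes for the 6 pairs of treatments, so the numbers pair the libraries, and in K1 it ran from -0.32 to 0.34 over 12531 genes, so they do not. The variance between the libraries of a group was 12.9 to 54.5 times that of counting in TPC1 and 5.54 to 9.20 times in K1, so no pair was counted as a single library.

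Named genes are all 5 members, BTG4, CDKN1A, MDM2 and PPM1D as a check of the treatments, the 2 largest called increases and decreases per list and line with both drugs against vehicle at 5 CPM or more, and the 3 genes most like each member. CNOT8, PABPC1, SMAD1 and SMAD9 were added after their values were seen. Exon lengths and gene positions come from GENCODE models on GRCh37, which are not the annotation the authors counted on. Upstream windows are RefSeq's on GRCh38.p14 and were not placed on GRCh37. Correlations are across libraries that share treatments. Intervals are 95% intervals of the fit. Paired decamers are given for 4 of the 5 members, and the remaining match is not reported here.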

Additional observations from a re-analysis of the deposited data

Results flagged for a closer look

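Responses that differed between the lines by the test of the difference itself, given as K1 minus TPC1 on the log2 scale, were the following. For nutlin against vehicle they were BTG2 at -0.87 and TOB1 at -0.65. For GSK2830371 against vehicle it was BTG2 at 1.03. For both drugs against vehicle they were BTG1 at -0.95 and BTG2 at -1.22, and for both drugs against nutlin it was BTG1 at -1.10. For both drugs against GSK2830371 they were BTG1 at -0.72 and BTG2 at -2.25. For the interaction it was BTG2 at -1.38. The line and the culture medium cannot be told apart in these values.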

How the results depend on the processing

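Of 95 values of a member in a comparison, 32 were called, and 27 of these kept their call in every alternative run. The other 5 lost it in some alternative, and none of the 32 reversed. Of the 63 that were not called, 45 stayed so without a change of sign, 6 were called in some alternative, and 12 changed sign in some. The cause of these changes was not tested.

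The number of members called moved in these comparisons. With library size alone in place of TMM, the TPC1 interaction called 1 of 5 members and the line difference for both drugs against GSK2830371 called 1. The line difference in the interaction called 2 without the filter, with DESeq2's Wald test and with the replicate number as a block, and the block changed no other member count. Without the filter, the line difference for both drugs against GSK2830371 called 3, with TOB1 at -0.60. Leaving out 1 library at a time gave 0 to 1 member for both drugs against nutlin in K1, 0 to 1 for the K1 interaction, 1 to 3 for the TPC1 interaction, and 1 to 2 for the line differences in nutlin against vehicle and in the interaction. It also gave 2 to 3 for nutlin against vehicle in TPC1 and in K1, 2 to 3 for both drugs against vehicle in K1, and 2 to 3 for the line difference for both drugs against GSK2830371.

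Sign changes touched values near 0. With library size alone, TOB2 stood at 0.035 for both drugs against nutlin in K1, at 0.016 for the line difference with nutlin and at -0.0045 for both drugs against vehicle in TPC1, and with filterByExpr the line difference was 0.0095. Leaving out 1 library gave ranges of -0.13 to 0.046 for that TOB2 line difference, -0.071 to 0.35 for BTG1 and -0.043 to 0.13 for BTG3. For the line difference of TOB1 in the interaction, the range was -0.086 to 0.27. In K1, the ranges were -0.19 to 0.23 for BTG1 with nutlin, -0.090 to 0.079 for BTG3 with GSK2830371, and for TOB2 -0.052 to 0.091 for both drugs against GSK2830371 and -0.082 to 0.051 against nutlin. In TPC1, they were -0.29 to 0.042 for BTG1 with nutlin, -0.061 to 0.17 for BTG2 with GSK2830371, -0.047 to 0.16 for TOB2 with both drugs against vehicle, and -0.23 to 0.020 for BTG3 with both drugs against GSK2830371.

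Leaving out a library leaves its group with 1, which is then assumed to vary like the other groups.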

Other observations

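Neighbours with related sequence or overlapping position were counted apart from the members. TOB1-AS1, antisense to TOB1, held 6 to 16 counts per library in K1 and 8 to 85 in TPC1, where it rose with nutlin by 2.13 ± 0.380 on the log2 scale (adjusted p = 0.00115, edgeR). TOB2P1, a pseudogene of TOB2, held 47 to 69 counts in K1 and 16 to 113 in TPC1. In TPC1, it rose with both drugs against nutlin by 1.40 ± 0.303 (adjusted p = 0.00951, edgeR), while TOB2 itself was at -0.26 in that comparison. In K1 vehicle libraries, TOB2P1 was higher than in TPC1 by 1.94 ± 0.261 (adjusted p = 5.2e-06, edgeR). The counting used strand and dropped reads of low mapping quality, and the share of reads exchanged between a gene and its copy was not tested.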
